A study of Mus musculus with 10 samples.

Results

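The comparison described here sets irradiated mouse embryonic fibroblasts (MEFs) that shared a dish with nilotinib-treated acute lymphoblastic leukemia (ALL) cells against irradiated MEFs given nilotinib alone. Its members are 6 of the 10 arrays of the series, chosen by their labels: 3 of MEFs + ALL + nilotinib and 3 of MEFs + nilotinib. Both groups were exposed to the drug, so the groups differ in the presence of the ALL cells. All arrays hold RNA of wild type MEFs that received 1000 rad and were harvested on day 9. By the labels the medium held 10 ng/ml of the cytokine IL-3, while the methods give a lower concentration for the medium of the leukemia cells. The MEFs + ALL + nilotinib dishes held 8093 cells, 1 line of precursor B leukemia cells from a Bcr/Abl transgenic mouse, with 16 nM nilotinib, and a Transwell membrane with 0.4 µm pores kept these cells apart from the MEFs. The MEFs + nilotinib dishes received 16 nM nilotinib and no ALL cells. The labels name the membrane where ALL cells were present, so the membrane and the cells cannot be told apart. The remaining arrays, 3 of MEFs + DMSO (the drug's solvent) and 1 of MEFs + ALL + DMSO, entered the statistics as further groups. By the methods, a triplicate is 3 dishes of MEFs, and the p-values below measure the spread between such dishes.

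Fibroblasts make the connective tissue matrix and, as feeder layers, supply lymphoid precursors with growth factors, adhesion molecules and chemokines. Precursor B leukemia cells survive drugs better on such a layer, and soluble factors can pass a porous membrane in both directions. Nilotinib inhibits the Abl kinase, including its oncogenic Bcr/Abl form, along with a few receptor kinases such as those for platelet-derived growth factor.

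Few genes differed, and most of those that did were higher with ALL cells. The probesets of a family of gamma-satellite-like loci and of the neighbouring locus 4930433N12Rik rose most. Among genes with a probeset of their own symbol, the largest rises were those of the neutrophil chemokine gene Ppbp, the opioid precursor gene Penk, the complement inhibitor gene Serping1 and the neutrophil chemokine gene Cxcl5, and the largest fall was that of Sult1e1, the gene of estrogen sulfotransferase. On the arrays, probesets read a transcript along its length, and every value below is on the log2 scale of the normalized signal unless called a fold or a summed signal. Limma, fitted on all 10 arrays, called 53 of 35557 probesets higher, which is 0.149%, and 13 lower, which is 0.0366%, at an adjusted p under 0.05 over all probesets. At an unadjusted p under 0.05, 3295 probesets differed. Of the 19938 genes with a probeset of their own symbol, 38 were called higher (0.191%) and 10 lower (0.0502%). The gene with the largest rise reached 2.19-fold, and 2 genes rose and 1 fell by more than 2-fold. The 3 arrays of each group did not overlap for any of the 66 called probesets, while among all probesets 7.8% lay wholly higher and 6.62% wholly lower with ALL cells. The median difference over all genes was -0.01, and 47.6% of all genes lay above 0. At an unadjusted p under 0.05, 5.23% of all genes were higher and 4.22% lower. The counts in gene lists below stand beside these shares.

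The number of calls depended on which arrays entered the fit. With the 6 arrays of both groups alone, 4 probesets were called, and 0 of the 48 genes passed limma. With all groups but without 1 array in turn, the calls ran from 12 without replicate 2 of MEFs + nilotinib to 36 without replicate 2 of MEFs + ALL + nilotinib. Leaving out replicate 1 or 3 of MEFs + ALL + nilotinib gave 17 and 19, replicate 1 or 3 of MEFs + nilotinib 27 and 16, and replicate 1, 2 or 3 of MEFs + DMSO 22, 17 and 24. Penk, Cxcl5, Rarres1 and Chac1 were called in each of these 9 fits, and 25 of the 48 genes in none of them. Among those 25 were Stmn2, Fgf10, Jag1, Tnfaip2, Igfbp4 and Grem1, while Serping1 was called in 2 of the 9.

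**Figure D1:**
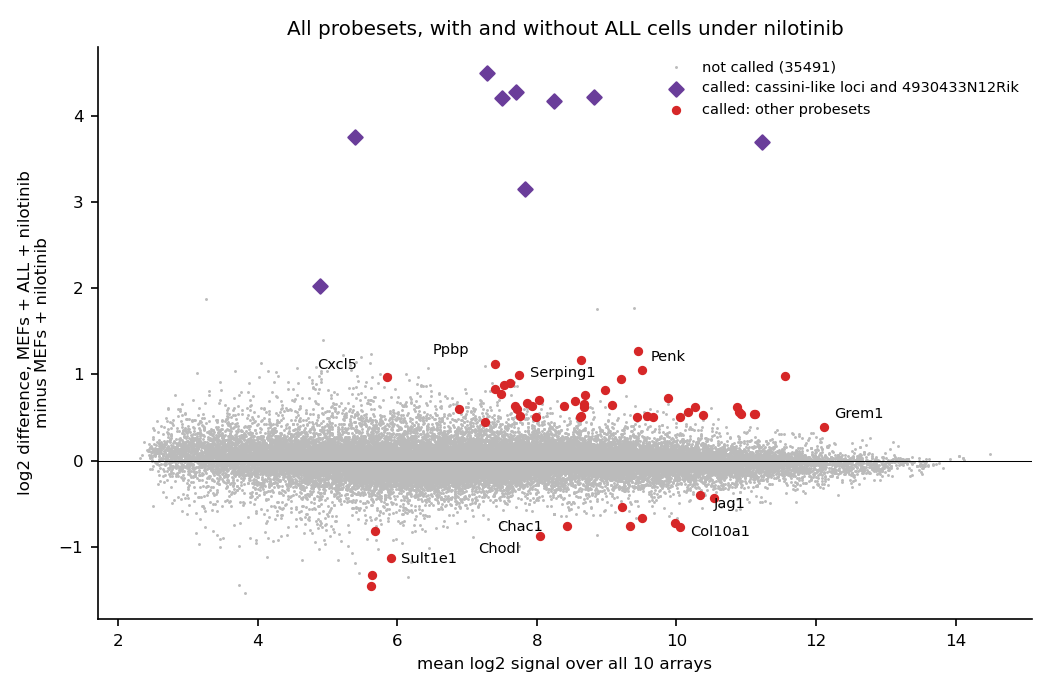
Each point is a probeset, with its mean log2 signal over all 10 arrays on the x axis and its log2 difference, MEFs + ALL + nilotinib minus MEFs + nilotinib, on the y axis. Diamonds mark the 9 called probesets of the cassini-like loci and 4930433N12Rik, which lie between 2.03 and 4.50, apart from the other called probesets (red) and the 35491 probesets not called (grey).

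The probesets of the gamma-satellite-like loci and of the neighbouring 4930433N12Rik rose further than any other. Gamma satellites are the repeats of mouse pericentromeric heterochromatin, and transcripts related to them are read by 8 probesets that the study lists for the cassini-like loci Gm10715, Gm10716, Gm10718 and Gm10800. For the probeset of Gm10718 with the larger rise, the log2 signals were 6.37, 6.09 and 5.28 in MEFs + nilotinib and 10.81, 9.84 and 9.95 in MEFs + ALL + nilotinib. Every array with ALL cells thus lay above every array without them, replicate 1 being the highest of both groups. The rise was 19.5-fold (log2 difference 4.29, SE 0.37, n = 3 arrays per group, limma adjusted p = 0.00606). All 8 probesets rose, with log2 differences from 2.03 for a probeset of Gm10715 to 4.29. For the probeset of Gm10800 the signals were 10.31, 9.37 and 8.67 without ALL cells and 13.31, 13.03 and 13.10 with them, an 11.7-fold rise (limma adjusted p = 0.0179). These loci belong to a multi-copy family, so their probesets are not independent and the copy that a signal comes from is uncertain. 4930433N12Rik, a non-coding RNA locus next to the cluster, is not similar to it in sequence by the study's annotation. Its probeset read 5.90, 5.33 and 4.82 without ALL cells and 10.74, 9.35 and 9.46 with them, again without overlap, and rose 24.0-fold (log2 difference 4.50, SE 0.42, limma adjusted p = 0.00962). The control matters for the size, since MEFs + nilotinib lay below MEFs + DMSO at all 9 of these probesets, by -0.18 to -1.10, with none of these differences past limma. Against MEFs + DMSO the rise of 4930433N12Rik was 13.5-fold rather than 24.0-fold. The 15 genes listed as regulators of satellite and heterochromatin silencing included 0 called genes in limma, with 1 higher and 1 lower at an unadjusted p under 0.05: Dnmt1, the maintenance DNA methyltransferase, differed by 0.27 and Dnmt3a, a de novo methyltransferase, by -0.26.

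**Figure D2:**
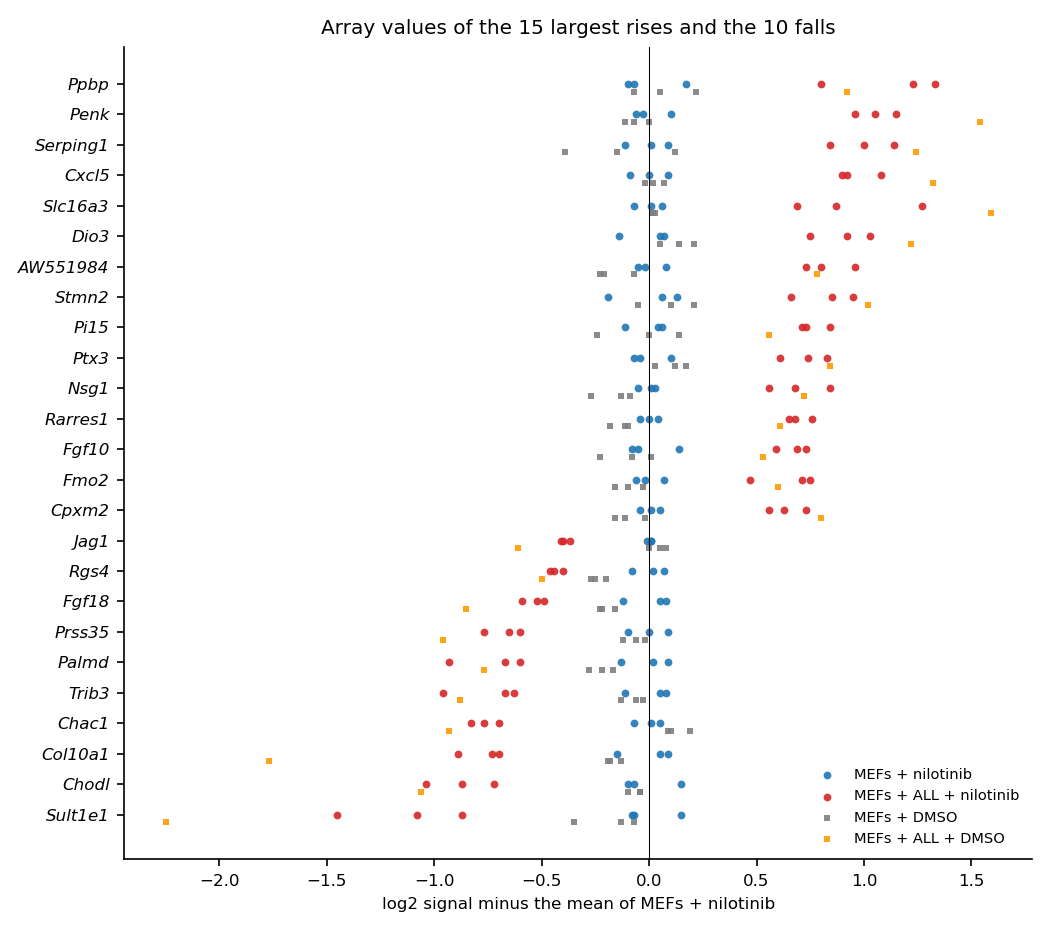
Array values of the 15 largest rises and the 10 falls among genes, each given on the x axis as the log2 signal minus the mean of MEFs + nilotinib, with 1 point per array. The red points (MEFs + ALL + nilotinib) lie to 1 side of the blue points (MEFs + nilotinib) for every gene, since only genes without overlap were chosen. The grey squares (MEFs + DMSO) lie nearer the blue ones than the red for most genes but not for Rgs4.

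The chemokine genes Cxcl5 and Ppbp rose. Cxcl5 encodes a chemokine that draws neutrophils, and its log2 signals were 5.42, 5.51 and 5.33 without ALL cells and 6.32, 6.50 and 6.34 with them. The groups were separated by more than the range within either. The rise was 1.95-fold (log2 difference 0.97, SE 0.08, n = 3 arrays per group, limma adjusted p = 0.00489). Ppbp, the gene of the precursor of the neutrophil chemokine CXCL7, read 6.86, 7.13 and 6.89 without ALL cells and 8.29, 7.76 and 8.19 with them. Replicate 2 was the lowest of the co-cultures, yet above all MEFs + nilotinib arrays. The log2 difference of Ppbp was 1.12 (SE 0.15, limma adjusted p = 0.0382), and it passed in 1 of the 9 fits that left out an array. Cxcl15, another chemokine gene of the family, differed by 0.87 but was not called (limma adjusted p = 0.186). Of the 15 CXC chemokine genes limma called 2 higher and 0 lower, while 5 were higher and 1 lower at an unadjusted p under 0.05. Their median difference was 0.02, beside -0.01 for all genes, and 6 of them lay below 0.

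The pentraxin gene Ptx3, whose product binds microbes and complement, read 9.64, 9.50 and 9.47 without ALL cells and 10.37, 10.15 and 10.28 with them. The co-culture arrays were the higher throughout, and the rise was 1.66-fold (limma adjusted p = 0.0202). Serping1, the gene of the C1 inhibitor that restrains the classical complement pathway, read 7.38, 7.46 and 7.26 against 8.51, 8.21 and 8.37. It rose 1.99-fold (log2 difference 0.99, SE 0.14, limma adjusted p = 0.0415). It was the 1 called gene of 20 complement genes, whose median was 0.03. C1ra, a protease of the C1 complex, differed by 0.37 without passing.

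Tnfaip2, a gene induced by tumor necrosis factor, rose by 0.56 (SE 0.07, limma adjusted p = 0.0357) and was the 1 called gene of 24 NF-kB feedback and target genes. Limma called 0 of the 24 lower, 21 lay above 0 and 3 below, the lowest at -0.02, and their median was 0.11. At an unadjusted p under 0.05, 7 were higher and 0 lower. Among those that limma did not call were Nfkbiz, which encodes a nuclear IkB protein, at 0.46, and Ptges, which encodes a prostaglandin E synthase, at 0.45. Vcam1, the gene of the adhesion molecule that binds lymphocyte integrin, was uneven: its signals were 10.00, 9.08 and 9.12 in MEFs + nilotinib and 9.93, 9.99 and 10.01 in MEFs + ALL + nilotinib, so the groups overlapped. Of 12 genes of the IL-6 family limma called 0, and their median was 0.20. At an unadjusted p under 0.05, 7 were higher and 1 lower, or 58.3% and 8.33%, beside 5.23% and 4.22% over all genes. Il6 itself differed by 0.52 and the receptor gene Osmr by 0.32, while Lif differed by -0.30. Limma called 0 of the 18 CC chemokine genes, with 3 higher and 1 lower at an unadjusted p under 0.05. The receptor gene Il4ra, whose product binds IL-4 and IL-13, rose by 0.52, the prostaglandin E receptor gene Ptger4 by 0.52 and Mrgprf, which encodes a Mas-related G protein-coupled receptor, by 0.60. All 3 were chosen after their values were seen.

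Penk, which encodes the precursor of the enkephalin opioid peptides, gave the clearest change of a single gene. Its log2 signals were 9.15, 8.99 and 9.02 in MEFs + nilotinib and 10.20, 10.01 and 10.10 in MEFs + ALL + nilotinib. In MEFs + DMSO they were 9.05, 8.98 and 8.94, close to those with the drug. Penk rose 2.07-fold (log2 difference 1.05, SE 0.07, n = 3 arrays per group, limma adjusted p = 0.00323, the smallest adjusted value, which 4 other probesets shared). It was the 1 called gene of 11 in the opioid peptide system, whose median was -0.08. Mme, the gene of an enkephalin-degrading protease, differed by 0.57 without passing, and Pnoc, the nociceptin precursor gene, by -0.24.

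Some genes best known from neurons rose as well. Stmn2, a regulator of microtubule assembly in growing axons, read 8.66, 8.73 and 8.41 without ALL cells and 9.55, 9.45 and 9.26 with them, all of the latter above all of the former (log2 difference 0.82, limma adjusted p = 0.0439). Nsg1, of neuronal endosomal sorting, rose by 0.70 (limma adjusted p = 0.0305). Gpm6b and Slc5a7 were called too and rose by 0.52 and 0.51 (limma adjusted p = 0.0426 and 0.0445). Both were chosen after their values were seen. Of the 4 measured neural markers limma called 0, with 1 higher and 1 lower at an unadjusted p under 0.05. The summed signal of the 4 ran from 1330 to 1410 with ALL cells and from 1250 to 1290 without, and its part in the rise of Stmn2 and Nsg1 was not tested.

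Genes of the response to low oxygen and of glycolysis lay mostly above 0. Of 32 measured genes 2 rose past the test and 0 fell, 29 lay above 0, and their median was 0.18. At an unadjusted p under 0.05, 17 were higher, or 53.1%, and 0 lower; over all genes 5.23% were higher and 4.22% lower. Slc16a3, the gene of the lactate exporter MCT4, read 8.77, 8.69 and 8.82 without ALL cells and 10.03, 9.63 and 9.45 with them. Its co-culture values spread more than its control values without meeting them. It rose 1.95-fold (log2 difference 0.94, SE 0.13, limma adjusted p = 0.0444). Pfkl, the gene of liver-type phosphofructokinase, read 9.99, 9.95 and 10.05 against 10.73, 10.66 and 10.46 and rose by 0.62 (limma adjusted p = 0.0354). Bnip3, of mitochondrial clearance, differed by 0.65, the oxygen sensor gene Egln3 by 0.59, the vasodilator gene Adm by 0.56 and the glucose transporter gene Slc2a1 by 0.47; none of the 4 passed. For Bnip3 the signals were 9.59, 9.63 and 9.52 without ALL cells and 10.64, 9.99 and 10.08 with them. Replicate 1 was the highest of the co-cultures for Slc16a3, Pfkl, Bnip3 and Egln3 alike. Slc16a3 and Pfkl passed in 2 and 1 of the 9 fits that left out an array.

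The promoter of Slc16a3 is shown because its window holds the core of the hypoxia response element, ACGTG, at 2 places. The window runs from 250 bases before to 50 bases after the RefSeq start at chr11:120948817-120949116 of GRCm38.p6, plus strand, 5′ to 3′, with the matches in capitals.
Slc16a3: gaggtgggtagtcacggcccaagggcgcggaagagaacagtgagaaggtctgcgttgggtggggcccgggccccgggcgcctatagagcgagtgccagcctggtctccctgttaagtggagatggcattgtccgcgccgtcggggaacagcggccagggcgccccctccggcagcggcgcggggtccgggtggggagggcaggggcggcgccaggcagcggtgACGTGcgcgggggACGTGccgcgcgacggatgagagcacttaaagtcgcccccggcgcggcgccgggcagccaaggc
The matches begin at positions -27 and -14 relative to the start. Searched on both strands, this core was present in 19.6% of the 32851 RefSeq windows of this length, in 4 of the 27 genes called higher that have a window and in 0 of the 9 called lower. A match of these letters is a description of the sequence and not a mapped binding site.

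In the opposite direction, genes of the ATF4 and amino acid response lay mostly below 0. ATF4 is the transcription factor that cells raise when amino acids or protein folding fail. Of 31 measured genes 0 rose and 2 fell past the test, 29 lay below 0, and their median was -0.18. At an unadjusted p under 0.05, 14 were lower and 1 higher, or 45.2% and 3.23%. Chac1, whose enzyme breaks down glutathione, read 8.76, 8.64 and 8.72 without ALL cells and 8.01, 7.94 and 7.88 with them. The groups were far apart against the range within them, and Chac1 fell by 0.76 (SE 0.06, limma adjusted p = 0.00599). Trib3, a pseudokinase gene that ATF4 induces, read 9.56, 9.72 and 9.75 against 9.04, 9.00 and 8.71, and also fell by 0.76 (SE 0.10, limma adjusted p = 0.0382), with replicate 3 the lowest. Trib3 was called in 0 of the 9 fits that left out an array. Cth, of cysteine synthesis, differed by -0.54 (limma adjusted p = 0.0596), the mitochondrial folate enzyme gene Aldh1l2 by -0.34 and the serine synthesis gene Phgdh by -0.30. Cebpb, which encodes a C/EBP transcription factor, went the other way at 0.24 without passing. The related unfolded protein response list, of chaperones and their regulators, had 0 of 19 genes called by limma, and their median was -0.06. Of these, 5 were lower and 0 higher at an unadjusted p under 0.05.

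The promoters of Chac1 and Trib3 are shown because both hold the C/EBP-ATF element TGATGNAA, the composite site that ATF4 binds with a C/EBP partner. Both are RefSeq windows of the same extent on GRCm38.p6, 5′ to 3′, at chr2:119350992-119351291 on the plus strand for Chac1 and at chr2:152344011-152344310 on the minus strand for Trib3. Capitals mark the element, here on the opposite strand in both, and in Trib3 also a TATAAA.
Chac1: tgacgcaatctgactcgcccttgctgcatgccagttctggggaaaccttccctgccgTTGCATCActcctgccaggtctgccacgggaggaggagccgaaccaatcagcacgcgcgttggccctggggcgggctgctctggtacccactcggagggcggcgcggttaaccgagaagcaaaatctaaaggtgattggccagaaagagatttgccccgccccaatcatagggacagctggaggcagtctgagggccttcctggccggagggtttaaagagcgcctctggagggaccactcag
Trib3: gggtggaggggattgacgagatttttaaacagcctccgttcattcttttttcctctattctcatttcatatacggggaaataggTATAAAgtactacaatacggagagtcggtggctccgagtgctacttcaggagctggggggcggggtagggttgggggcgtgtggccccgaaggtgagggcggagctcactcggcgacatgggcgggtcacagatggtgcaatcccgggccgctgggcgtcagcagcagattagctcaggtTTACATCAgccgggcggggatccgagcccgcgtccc
In Chac1 the element begins at position -193 relative to the start and in Trib3 at position 15. The element was found in 3 of the 9 genes called lower that have a window, namely Chac1, Trib3 and Sult1e1. It was found in 0 of the 27 genes called higher that have one, and in 3.97% of all windows. A gene was counted if any of its windows matched, so counts of genes and shares of windows are unlike units. TATAAA was present in 7 of the 27 and 3 of the 9 genes, and in 13.6% of all windows. A kappa B motif was present in 2 of the 27 genes (Ptx3 and Il4ra) and 0 of the 9, and in 4.79% of all windows. No window of Penk or Cxcl5 was used here.

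**Figure D3:**
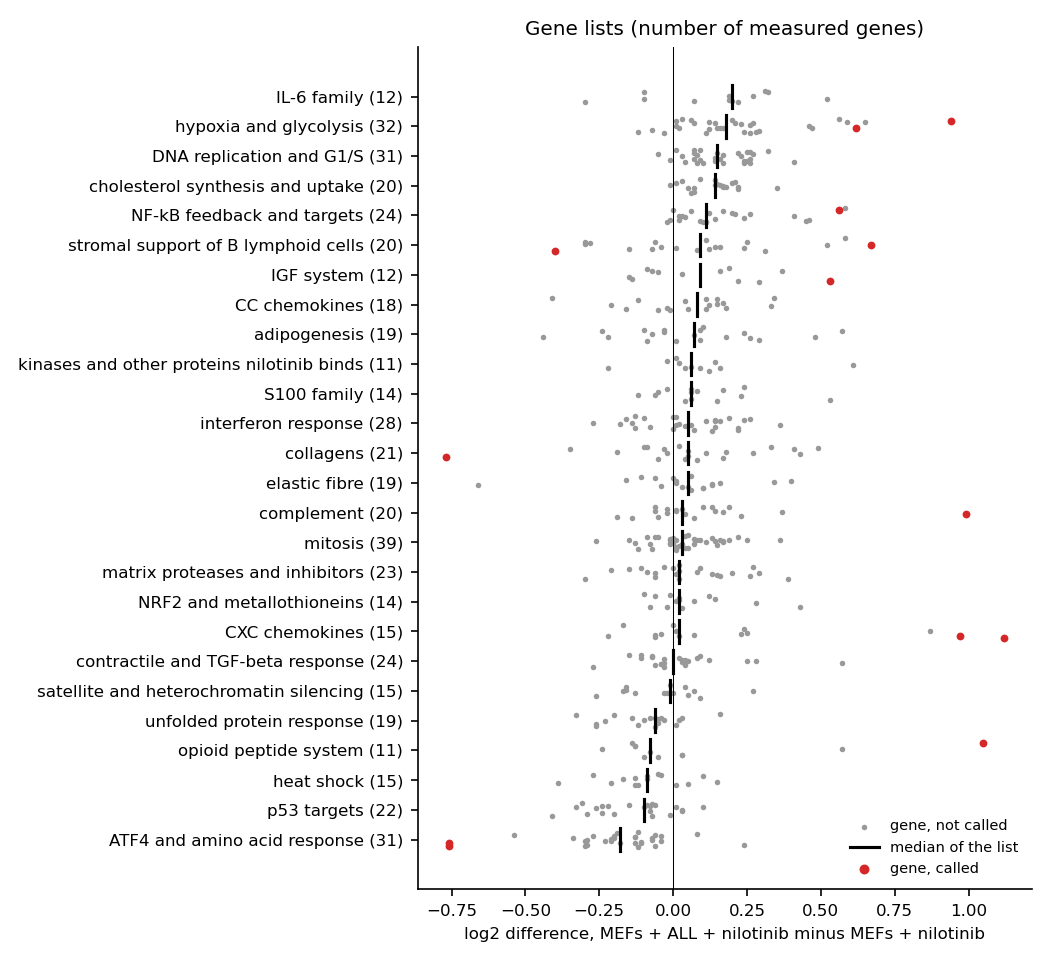
Log2 difference, MEFs + ALL + nilotinib minus MEFs + nilotinib, of every measured gene (points) of the 26 gene lists, with list medians as black bars, called genes in red and the number of measured genes in brackets. The medians run from -0.18 for the ATF4 and amino acid response to 0.20 for the IL-6 family.

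Some growth factor and matrix genes rose and others fell. Fgf10, a mesenchymal factor that acts on epithelium, read 7.78, 7.59 and 7.56 without ALL cells and 8.37, 8.23 and 8.33 with them, and rose by 0.67 (SE 0.09, limma adjusted p = 0.0382). Fgf18, a factor of cartilage and bone growth, read 9.41, 9.58 and 9.61 against 9.04, 9.01 and 8.94, and fell by 0.54 (limma adjusted p = 0.0382). So 2 genes of the fibroblast growth factor family moved in opposite directions. Jag1, a Notch ligand, read 10.49, 10.51 and 10.51 against 10.10, 10.09 and 10.13. The arrays of each group were nearly equal, and Jag1 fell by 0.40 (SE 0.05, limma adjusted p = 0.0404). Like Fgf10, Jag1 was called in 0 of the 9 fits that left out an array. Fgf10 and Jag1 were the called genes of 20 listed for stromal support of B lymphoid cells, a list with 5 higher and 4 lower at an unadjusted p under 0.05. Igfbp4, which binds insulin-like growth factors, rose by 0.53 (limma adjusted p = 0.036). It was the 1 called gene of 12 in that system, of which 6 were higher and 2 lower at an unadjusted p under 0.05 and whose median was 0.09. Grem1, a secreted antagonist of bone morphogenetic proteins, read 12.03, 12.01 and 11.95 against 12.41, 12.40 and 12.36 and rose by 0.39 (limma adjusted p = 0.0439). The Wnt antagonist gene Dkk2 rose by 0.51, the lymphatic growth factor gene Vegfd by 0.54 and Ccbe1 by 0.50. Grem1, Dkk2, Vegfd and Ccbe1 were chosen after their values were seen.

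Col10a1, the collagen of hypertrophic cartilage, read 10.36, 10.56 and 10.60 without ALL cells and 9.62, 9.81 and 9.78 with them. It fell by 0.77 (SE 0.08, limma adjusted p = 0.0179) and was the 1 called gene of 21 collagen genes, of which 6 were higher and 2 lower at an unadjusted p under 0.05. Their median was 0.05, and it ran from -0.02 to 0.14 over the alternative settings. The type VI collagen genes Col6a2, Col6a1 and Col6a3 were higher without passing, at 0.49, 0.43 and 0.27. The elastin gene Eln was lower without passing at -0.66 (limma adjusted p = 0.0759). Of the 19 elastic fibre genes limma called 0, with 2 higher and 2 lower at an unadjusted p under 0.05. Of 23 matrix proteases and inhibitors it likewise called 0, with 4 higher and 3 lower. The small proteoglycan genes Prelp and Fmod rose by 0.57 and 0.54, Gpc3, which encodes a cell surface proteoglycan, by 0.50, and Plau, the gene of urokinase, by 0.51. These 4 were chosen after their values were seen.

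Rarres1 and Dio3 rose and Sult1e1 and Chodl fell. Rarres1, a retinoid-responsive gene, read 8.36, 8.32 and 8.28 without ALL cells and 9.08, 9.00 and 8.97 with them. The spread within each group was small, and Rarres1 rose by 0.69 (SE 0.06, limma adjusted p = 0.00599). Dio3, whose deiodinase inactivates thyroid hormone, read 7.24, 7.05 and 7.26 against 8.22, 7.94 and 8.11 and rose 1.87-fold (limma adjusted p = 0.0167). Both sets of Dio3 values kept clear of each other. Pi15, a secreted protein named as a peptidase inhibitor, rose by 0.76, the flavin monooxygenase gene Fmo2 by 0.64, the carboxypeptidase-like gene Cpxm2 by 0.63, the urea transporter gene Slc14a1 by 0.63 and AW551984, of which no role is given here, by 0.83. Sult1e1, whose enzyme inactivates estrogen by adding sulfate, read 6.46, 6.68 and 6.45 without ALL cells and 5.45, 5.08 and 5.66 with them. It fell by 1.14 (SE 0.15, limma adjusted p = 0.0382), with replicate 2 the lowest, but was called in 0 of the 9 fits that left out an array. Chodl, a C-type lectin-like membrane protein, read 8.34, 8.59 and 8.37 against 7.57, 7.40 and 7.72 and fell by 0.87 (limma adjusted p = 0.0202). Palmd fell by 0.73, Prss35, which encodes a secreted serine protease-like protein, by 0.67, and Rgs4, a brake on G protein signals, by 0.44. Clca3a1 and Clca3a2, genes of secreted regulators of chloride channels, differed by 0.92 and 0.86 without being called (limma adjusted p = 0.187 and 0.124), and their arrays did not overlap.

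Among the called probesets that name no single gene, 2 pair with both Ly6c2 and Ly6c1, which encode near-identical surface antigens. Their log2 differences were 1.28 and 1.17 (limma adjusted p = 0.0133 and 0.0102). Another 4 have no symbol, with differences from 0.66 to 0.98, and 3 unnamed ones with IDs below those of the annotation were lower, by -0.81 to -1.46.

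None of the listed genes of cell division passed the test in these irradiated cells. Of 31 DNA replication and G1/S genes limma called 0, yet 11 were higher and 0 lower at an unadjusted p under 0.05, 29 lay above 0, and their median was 0.15. The largest difference was that of Mcm3, a subunit of the replicative helicase, at 0.41 (limma adjusted p = 0.111). Of 39 mitosis genes limma called 0, and their median was 0.03, with 2 higher at an unadjusted p under 0.05. For 22 p53 target genes, which irradiation is known to induce, limma called 0 as well. Of these 6 were lower and 0 higher at an unadjusted p under 0.05, and their median was -0.10. Gadd45a, a growth arrest gene, differed by -0.41 (limma adjusted p = 0.0695), and Mdm2, the p53 ubiquitin ligase gene, by -0.31. In cholesterol synthesis and uptake limma called 0 of 20 genes, and the median was 0.14, with 7 higher and 0 lower at an unadjusted p under 0.05. Lss, which encodes lanosterol synthase, led with 0.35. Limma called 0 genes in the interferon response, contractile and TGF-beta response, adipogenesis, heat shock, NRF2 and metallothionein and S100 lists as well. At an unadjusted p under 0.05, 1 was higher and 1 lower of 28 interferon genes, or 3.57% each, beside 5.23% and 4.22% over all genes. The counts higher and lower were 3 and 2 of 24 contractile genes and 5 and 1 of 19 adipogenesis genes. They were 1 and 0 of 15 heat shock genes, 2 and 0 of 14 NRF2 genes and 3 and 0 of 14 S100 genes. Of the 11 genes for proteins that nilotinib binds limma called 0, with 2 higher and 1 lower at that level, led by the growth factor receptor gene Pdgfra at 0.61 (limma adjusted p = 0.119).

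Markers of B cells and leukocytes did not separate the groups. The summed signal of 12 pro-B and B cell markers was 1190 to 1260 with ALL cells and 1160 to 1240 without, and in each of the 6 arrays 1 of the 12 lay above the array's median. For 12 leukocyte markers the sums were 3510 to 3800 with ALL cells and 3140 to 3770 without. Limma called 0 of either list, and 0 differed at an unadjusted p under 0.05. Of 12 fibroblast markers, 11 or 12 exceeded the array median in every one of these arrays. Their sums were 51300 to 52600 with ALL cells and 48000 to 54100 without. That count does not set fibroblasts apart. In the same arrays 8 to 11 of the 12 leukocyte markers and 10 or 11 of the 13 macrophage markers also exceeded the median. Macrophage markers summed to 7740 to 8590 and 7080 to 8440, and limma called 0 of the 13, with Mrc1, the mannose receptor gene, at 0.50 the 1 gene past an unadjusted p of 0.05. The sums of the endothelial markers did not overlap, at 672 to 682 with ALL cells and 708 to 785 without, and neither did those of the neural markers given above. Limma called 0 of the 8 endothelial genes, and 1 was lower at an unadjusted p under 0.05. Epithelial markers summed to 632 to 698 and 621 to 724, and skeletal muscle markers to 1140 to 1210 and 1140 to 1200. In bulk RNA, fewer cells of a type and less RNA per cell cannot be told apart.

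**Figure D4:**
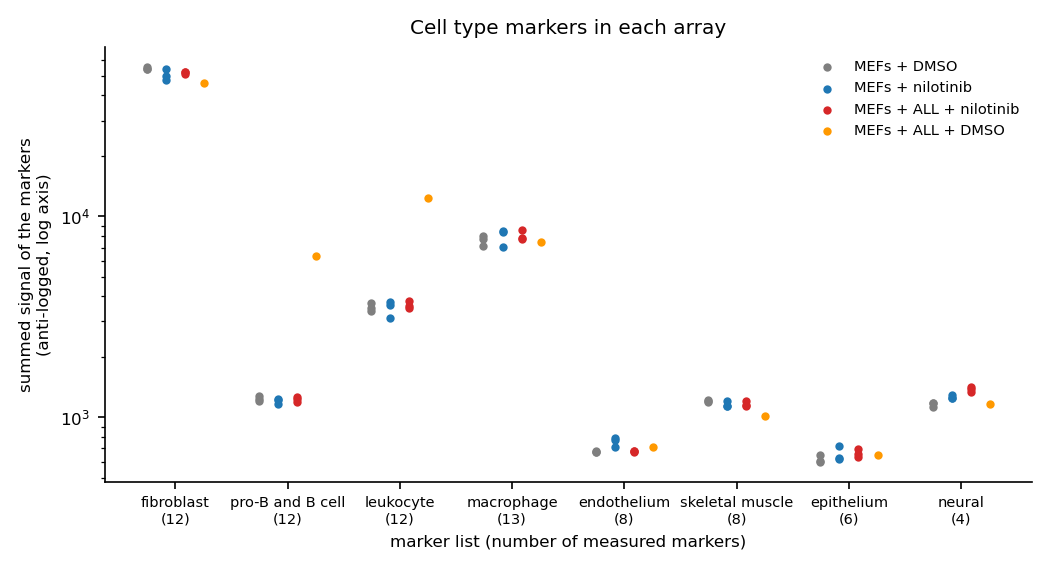
Summed anti-logged signal of each cell type marker list (y axis, log scale) in each of the 10 arrays, by group, with the number of markers in brackets. Arrays of MEFs + ALL + nilotinib and MEFs + nilotinib lie together for the B cell and leukocyte lists, and the lone MEFs + ALL + DMSO array lies above all others at 6360 and 12300.

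Whether the same differences came with ALL cells without the drug was examined on separate arrays, the 1 of MEFs + ALL + DMSO and the 3 of MEFs + DMSO. According to the methods, ALL cells had contaminated other dishes of MEFs + ALL + DMSO, and this array carried B cell and leukocyte transcripts, with sums of 6360 and 12300 for those markers against at most 1280 and 3800 elsewhere. Their part in the values that follow was not tested, and limma assumed that the array varies like the other groups. Of the 66 called probesets, 65 differed in the same direction there and 64 lay beyond all 3 MEFs + DMSO arrays. Over all probesets 55.5% had the same sign, and the differences under both treatments had a Pearson correlation of 0.14 and a Spearman correlation of 0.16 across probesets, which are not independent replicates. Limma called 6.67% of all probesets higher and 3.59% lower in MEFs + ALL + DMSO than in MEFs + DMSO, including 44 of the 53 higher and 9 of the 13 lower probesets. Penk read 10.59 in this array against 8.94 to 9.05 in MEFs + DMSO, Cxcl5 6.74 against 5.40 to 5.49, and Slc16a3 10.35 against 8.78 to 8.79. All 3 genes were thus also high with ALL cells and solvent. Chac1 read 7.78 against 8.80 to 8.90, Sult1e1 4.28 against 6.18 to 6.46, and Col10a1 8.74 against 10.32 to 10.38.

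Limma's test of the difference between both differences has 1 array in an arm and takes that array's spread from the other groups. Its calls thus describe that 1 array together with the other groups, and the array's other cells and the solvent cannot be told apart. The test passed for 1406 probesets, 3.95% of all, and for 5 of the 66. These were Col10a1 and Slc14a1, Pcbd1, which encodes a pterin dehydratase and nuclear cofactor, and 2 of the unnamed probesets. Col10a1 fell by 0.77 under nilotinib and differed by -1.60 in the solvent array, 0.83 apart (limma adjusted p = 0.0136). Slc14a1 rose by 0.63 under nilotinib against 1.31 in the solvent array (limma adjusted p = 0.0194). The 4930433N12Rik probeset differed more under nilotinib, with 4.50 under nilotinib and 2.43 in the solvent array, but that difference did not pass (limma adjusted p = 0.169). In fold terms 4930433N12Rik stood 24.0-fold higher under nilotinib and 5.21-fold higher in the solvent array, each against its own control. The cassini-like probesets also stood higher in the solvent array than in MEFs + DMSO, from 1.92-fold for a probeset of Gm10715 to 6.11-fold for a probeset of Gm10718. Under nilotinib these probesets rose 4.20-fold and 19.5-fold. Gm10800 read 12.74 in the solvent array and 10.09 to 11.12 in MEFs + DMSO, beside 13.03 to 13.31 in MEFs + ALL + nilotinib.

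**Figure D5:**
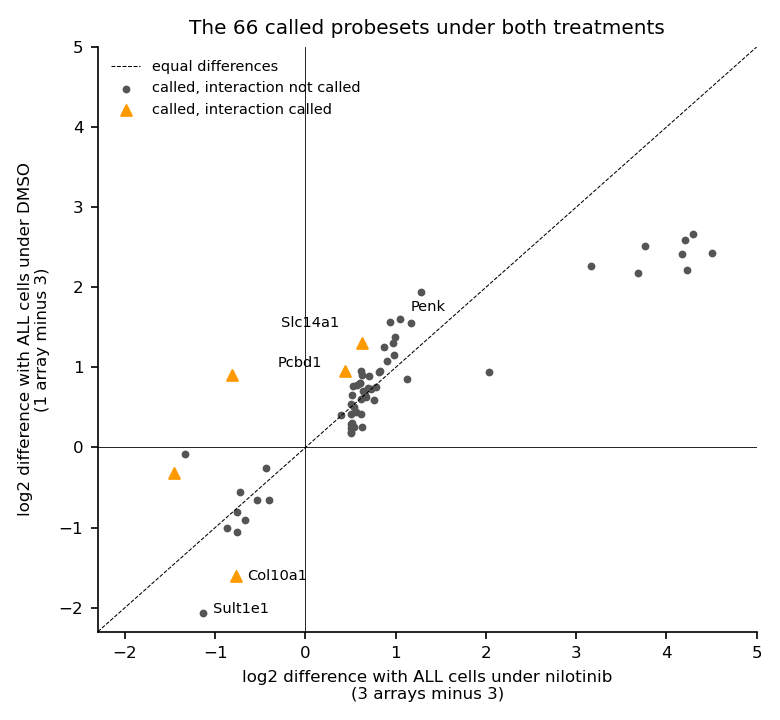
Log2 difference with ALL cells of the 66 called probesets under nilotinib (x axis, 3 arrays minus 3) and under DMSO (y axis, 1 array minus 3), with a dashed line of equal differences. Triangles mark the 5 probesets that passed limma's test of the difference between both axes, which has that 1 array in an arm. On both axes 65 of the 66 lie on the same side of 0.

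Setting the co-cultures against MEFs + DMSO uses the same 3 arrays with ALL cells, so its values stand beside the main ones and are not a separate test. Of the 48 genes 45 passed there too, while Rgs4, Fgf18 and Palmd did not. For Rgs4 the signals were 10.54, 10.59 and 10.52 in MEFs + DMSO, 10.71, 10.86 and 10.81 in MEFs + nilotinib and 10.39, 10.33 and 10.35 with ALL cells and nilotinib. The nilotinib control was the highest of the 3 groups, and the log2 difference of the co-cultures was -0.44 from MEFs + nilotinib but -0.19 from MEFs + DMSO. For 45 of the 48 genes MEFs + nilotinib and MEFs + DMSO differed by less than 0.2.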

How the data were processed

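RNA of MEFs was hybridised to Mouse Gene 1.0 ST arrays, and the values are the log2 of RMA-normalized probeset signals that the authors deposited. The submitters' processing notes name Partek, and how background and scale were handled beyond RMA is not given in the sources read. Values ran from 2.09 to 15.0, and array medians from 6.94 to 7.01. The MEFs + ALL + DMSO array stood apart on the first principal component (-66.9, others -9.13 to 22.6), and replicate 2 of MEFs + ALL + nilotinib on the next (50.0, others -17.0 to 13.1). Precision is limited by the number of arrays.

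The array's annotation gives 1 gene symbol for 21789 of 35557 probesets, several for 1621 and none for 12147. Of the 21789, 21698 matched RefSeq genes of GRCm38.p6 by gene ID. A gene was named from a probeset with 1 symbol, that with the highest mean, except the loci whose probesets the study lists. Groups came from the labels.

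The means of the 4 groups were fitted to the 10 arrays with limma 3.58.1 (lmFit and eBayes) in R 4.3.3, and calls were made at 0.05 after a Benjamini-Hochberg adjustment that took in every probeset. The fit was tested on simulated data. Folds are ratios of means of anti-logged values. Members and gene lists were chosen with earlier results of these data known. The rule names the 15 largest rises and up to 15 falls among called genes without overlap, of which 10 exist, and in each list the up to 4 members with the largest change. Not all list members so named are printed. Motifs were searched on both strands of the RefSeq promoter windows. Alternatives were the 6 arrays alone, moderation with trend and robust, array weights, median centring, quantile normalization, leaving out the dimmest 25% of probesets, adjustment over probesets with 1 symbol, the median over a gene's probesets, a replicate block, and leaving out each replicate. A fit without the MEFs + ALL + DMSO array was added after seeing the data.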

Additional observations from a re-analysis of the deposited data

Results flagged for a closer look

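For 16 results limma called the contrast (MEFs + ALL + nilotinib minus MEFs + nilotinib) minus (MEFs + ALL + DMSO minus MEFs + DMSO). Each rests on the lone MEFs + ALL + DMSO array, whose spread was taken from the other groups, so a difference between nilotinib and DMSO is not shown by these calls. The array carried B cell and leukocyte transcripts, and their part in these values was not tested.

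Of the genes of dividing cells, the value was -3.64 for Kif11 and -3.46 for Top2a, which act in mitosis, and -2.47 for Mcm5 and -1.79 for Mcm3, which are subunits of the replicative helicase. For Top2a the signals were 10.44 in MEFs + ALL + DMSO and 6.69 to 6.79 in MEFs + DMSO, but 6.90 to 7.13 in MEFs + ALL + nilotinib and 6.65 to 6.97 in MEFs + nilotinib. Top2a thus stood high in the lone array alone. Prc1, of the dividing spindle, was at -1.87, the kinetochore gene Spc25 at -1.29 and the DNA methyltransferase gene Dnmt1 at -1.30.

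Egln3, an oxygen sensor gene, was at -1.81, Slc14a1 at -0.68, the fatty acid desaturase gene Scd1 at -0.58 and Pcbd1 at -0.50, all with the more positive difference in the solvent array. Col10a1 was at 0.83, the cytokine gene Lif at 0.64 and Nqo1, a detoxifying reductase gene, at 0.50, with the more negative difference there. The unnamed probesets 10341690 and 10338966 were at -1.73 and -1.14. For the former the signals were 6.54 in MEFs + ALL + DMSO and 5.60 to 5.66 in MEFs + DMSO, but 4.89 to 5.37 in MEFs + ALL + nilotinib and 5.92 to 6.06 in MEFs + nilotinib, so that it moved in opposite directions with ALL cells under both treatments. For 10338966 the lone array read 5.18, near the 5.36 to 5.66 of MEFs + DMSO. The high values there were those of MEFs + nilotinib, at 6.34 to 6.67, against 4.98 to 5.08 in MEFs + ALL + nilotinib. Limma adjusted p-values of the 16 ran from 1.66e-05 for Top2a to 0.0373 for Nqo1.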

How the results depend on the processing

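Of the 66 probesets called between MEFs + ALL + nilotinib and MEFs + nilotinib, the count became 4 with the 6 arrays alone, 117 with trend and robust moderation, 141 with array weights and 115 without the dimmest probesets. The fit of the 6 arrays has fewer samples behind its spread. Centring each array gave 60 (52 higher and 8 lower), quantile normalization 78 and adjustment over probesets with 1 symbol 48. Leaving out the MEFs + ALL + DMSO array, an alternative chosen after seeing the data, cannot change the 66, since a lone array adds nothing to the spread. Leaving out each replicate gave 12 to 36. The 1406 calls of the interaction became 2323 with array weights and 1008 to 1932 without a replicate. The cause of these moves was not tested.

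With the replicate number as a block (replicate block), 12 probesets were called. Of the 48 genes 3 passed, which were Penk, Cxcl5 and Stmn2, while Rarres1 and Chac1 did not. Of the 9 probesets of the cassini-like loci and 4930433N12Rik, 5 passed. Deviations of same-numbered arrays of both groups correlated at 0.06, -0.23 and -0.29, and those of differently numbered arrays at -0.26 to 0.39. With 3 arrays per group, these values cannot show whether dishes of the same number were paired. The block was not run for the interaction, since the lone array has no number. Every gene or probeset the naming rule gives kept its direction under each alternative, except Atrx, a chromatin remodeller, at -0.17, which came to 0.01 without replicate 1 of MEFs + nilotinib and ran from -0.31 to 0.01 over the fits without a replicate. The median of the ATF4 list ran from -0.18 to -0.14 and that of hypoxia and glycolysis from 0.17 to 0.23, while those of the collagens (-0.02 to 0.14), CXC chemokines (-0.02 to 0.12), contractile genes (-0.02 to 0.02) and silencing regulators (-0.06 to 0.03) lay on both sides of 0. Without replicate 3 of MEFs + nilotinib, 6 of the 26 medians moved by more than the spread between replicates.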
